A study of Mus musculus with 16 samples.

Results

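Weak common promoters are transcription start sites at which total Jarid2 and its form dimethylated on the lysine K116 (Jarid2-K116me2) were both called in E14 ESC, but with low scores for both antibodies. The 400 members were chosen by their peak scores. Overlapping peaks of the 2 lists were merged into 5001 regions, of which 3896 held peaks of both antibodies and 2670 had a midpoint within 1 kb of an annotated start. Members are the regions among these 2670 common promoters whose highest score stayed under 250 in each list, or 15.0% of them. They are compared with the 448 ceiling promoters, whose score reached 3100, the value at which scores pile up, in both lists.

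The series holds 16 ChIP-seq libraries of mouse cells. Jarid2 and Jarid2-K116me2 were each immunoprecipitated from 1 sample of E14, a wild-type line of mouse ESC grown in serum with LIF, so the scores have no replicates. H3K27me3 was immunoprecipitated from Jarid2 -/- ESC (KO) and from the same cells rescued with a bacterial artificial chromosome (BAC) expressing wild-type Jarid2 (WT-rescued) or a mutant of Jarid2 in which this lysine is an alanine (K116A-rescued). These lines were studied as ESC in serum with LIF and as embryoid bodies (EBs), made in hanging drops and kept without LIF for 8 days, with 2 libraries per line and stage. Both rescued lines carry the deletion of the endogenous gene, none of the H3K27me3 libraries comes from E14, and each genotype is represented by 1 line. The peak lists give neither reads per peak nor reads per library.

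Polycomb Repressive Complex 2 (PRC2) methylates lysine 27 of histone H3, and its trimethylated form, H3K27me3, marks repressed genes. Jarid2 is a cofactor that binds PRC2 and chromatin, and in ESC both are found mainly at CpG-rich promoters of genes that are silent until differentiation. PRC2 also methylates Jarid2 itself, and the antibody against K116me2 detects that modified form.

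The letters of a few promoters show what kind of DNA lies at these sites. Each sequence is the 250 bases before the start nearest to the region midpoint, read 5′ to 3′ on the strand of the gene from the mm9 reference, with every CpG in capitals. The first 3 are the members with an H3K27me3 peak over the start in the most libraries, the hyperpolarization-activated channel gene Hcn2 (chr10:79179129-79179378, plus strand), the potassium channel subunit gene Kcns1 (chr2:163996850-163997099, minus strand) and the plectin gene Plec (chr15:76062476-76062725, minus strand).
Hcn2: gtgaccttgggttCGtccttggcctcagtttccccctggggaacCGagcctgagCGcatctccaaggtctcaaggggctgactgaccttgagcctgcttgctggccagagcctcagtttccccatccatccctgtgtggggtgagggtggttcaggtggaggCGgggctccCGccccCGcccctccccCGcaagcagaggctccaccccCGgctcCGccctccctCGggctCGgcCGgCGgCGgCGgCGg
Kcns1: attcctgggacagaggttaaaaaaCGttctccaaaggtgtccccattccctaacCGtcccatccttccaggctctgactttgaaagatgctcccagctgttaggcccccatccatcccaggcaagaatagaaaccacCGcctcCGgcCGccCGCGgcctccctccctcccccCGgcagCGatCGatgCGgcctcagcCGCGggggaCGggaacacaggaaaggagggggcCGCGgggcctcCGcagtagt
Plec: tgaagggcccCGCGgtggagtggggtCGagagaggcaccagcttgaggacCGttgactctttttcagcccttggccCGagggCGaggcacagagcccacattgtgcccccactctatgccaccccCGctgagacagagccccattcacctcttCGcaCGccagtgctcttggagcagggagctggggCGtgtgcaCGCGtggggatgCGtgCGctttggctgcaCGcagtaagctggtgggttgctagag
The next 3 are the members with the highest scores among those without an H3K27me3 peak over the start in any library, the receptor genes Tnfrsf19 (chr14:61665693-61665942, minus strand) and Nmbr (chr10:14479777-14480026, plus strand) and the choline dehydrogenase gene Chdh (chr14:30821959-30822208, plus strand).
Tnfrsf19: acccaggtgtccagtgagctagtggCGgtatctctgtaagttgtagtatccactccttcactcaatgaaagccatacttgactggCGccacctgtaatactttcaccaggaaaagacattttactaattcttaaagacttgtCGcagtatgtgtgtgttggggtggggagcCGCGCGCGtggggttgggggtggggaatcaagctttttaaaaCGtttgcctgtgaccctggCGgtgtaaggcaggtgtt
Nmbr: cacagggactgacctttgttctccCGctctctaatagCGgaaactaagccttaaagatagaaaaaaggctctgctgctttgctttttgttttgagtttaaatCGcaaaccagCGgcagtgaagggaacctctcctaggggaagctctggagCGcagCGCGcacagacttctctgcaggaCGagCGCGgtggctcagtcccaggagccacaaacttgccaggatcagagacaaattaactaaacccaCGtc
Chdh: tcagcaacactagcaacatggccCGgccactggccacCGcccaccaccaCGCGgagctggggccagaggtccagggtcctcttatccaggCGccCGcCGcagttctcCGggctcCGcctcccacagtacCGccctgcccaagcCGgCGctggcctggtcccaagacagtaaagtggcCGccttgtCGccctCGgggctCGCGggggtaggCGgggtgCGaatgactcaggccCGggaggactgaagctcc
The last 2 are ceiling promoters for comparison, those of the transcription factor genes Lhx2 (chr2:38207802-38208051, plus strand) and Tbx1 (chr16:18587063-18587312, minus strand).
Lhx2: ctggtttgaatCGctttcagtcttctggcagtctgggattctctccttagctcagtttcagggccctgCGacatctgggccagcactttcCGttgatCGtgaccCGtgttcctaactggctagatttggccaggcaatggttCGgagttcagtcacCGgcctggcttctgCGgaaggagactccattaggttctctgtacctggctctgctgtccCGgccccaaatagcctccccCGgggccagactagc
Tbx1: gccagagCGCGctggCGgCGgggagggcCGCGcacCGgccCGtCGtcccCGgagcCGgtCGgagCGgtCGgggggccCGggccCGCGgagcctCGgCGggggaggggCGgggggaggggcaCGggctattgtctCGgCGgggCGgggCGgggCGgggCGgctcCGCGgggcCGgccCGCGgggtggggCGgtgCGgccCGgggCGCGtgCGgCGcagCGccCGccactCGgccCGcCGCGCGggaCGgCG
The 6 weak promoters held 9 to 20 CpGs in these 250 bases, with 16 in Hcn2, 17 in Kcns1, 15 in Plec, 9 in Tnfrsf19, 11 in Nmbr and 20 in Chdh. Lhx2 held 10, within the range of the weak promoters, and Tbx1 held 48, above it. The weak examples with and without an H3K27me3 peak overlapped in CpG number.

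The scores that chose the members are given as a description only. The score is the MACS score of a peak, minus 10 times the log10 of its p-value, and it rises with depth as well as with enrichment. Over the 400 members, the Jarid2 score ran from 62.2 to 249.8 with a median of 167 (quartiles 122 and 206). The Jarid2-K116me2 score ran from 91.9 to 249.9 with a median of 148 (quartiles 119 and 189). The Jarid2 list starts at 62.07 and the Jarid2-K116me2 list at 91.86, so the lower ends of both ranges are set by the lists. The Jarid2-K116me2 score was the higher one at 183 members and the Jarid2 score at 217, with a median ratio of 0.977 (quartiles 0.737 and 1.25).

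**Figure D1:**
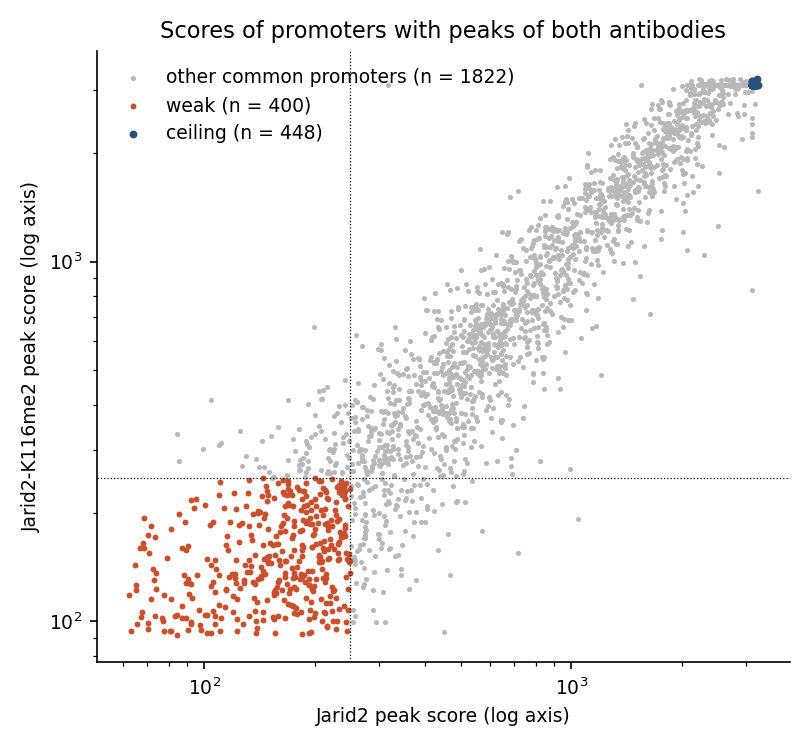
Jarid2 score (x axis) against Jarid2-K116me2 score (y axis) of each of the 2670 common promoters, both on log axes, with the dotted lines at 250. The 400 weak promoters fill the lower left corner and the 448 ceiling promoters the upper right end.

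Ranked by the higher of both scores, the lowest members were the start of Zmiz1, a transcriptional coactivator (84.42 for Jarid2 and 91.89 for Jarid2-K116me2), that of 2900055J20Rik (80.91 and 93.83) and that of the kinase gene Prkd3 (81.28 and 93.96). Just inside the limit were the long non-coding RNA 2310069G16Rik (200.46 and 249.94), Kcns1 (249.83 and 136.72) and Gm3248 (145.08 and 249.78). Just outside it were Vstm2l (152.59 and 250.08), the metalloproteinase gene Mmp25 (250.74 and 223.13) and Gm15334 (250.75 and 161.83). Members and non-members next to the limit were therefore separated by less than 1 unit of score. Kcns1 inside and Vstm2l outside each had H3K27me3 in 11 of 12 libraries. The others varied, with 2 libraries for 2310069G16Rik and 0 for Gm3248 inside, and 1 for Mmp25 and 5 for Gm15334 outside.

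Weak promoters were narrow sites, and 5 of them held more than 1 Jarid2 peak and 6 more than 1 Jarid2-K116me2 peak. The median width of their merged regions was 1162 bp (quartiles 1012.75 and 1338), against 4651 bp (quartiles 3884.25 and 6319.5) for ceiling promoters, and the widest weak region, at 2576 bp, was narrower than the narrowest ceiling region, at 2670 bp. Width and score come from the same peaks, so this was not tested. The midpoint lay downstream of the start in 77% of the weak and 64.3% of the ceiling promoters, at a median distance of 311.5 and 352.5 bp from it. The nearest start belonged to a protein-coding gene in 367 of the 400 members. The others were 13 lincRNAs, 11 pseudogenes, 6 processed transcripts and 3 miRNA genes. Members were seldom neighbours of a ceiling region: 5 of 400 (1.25%) lay within 50 kb of one, against 47 of 448 (10.5%) ceiling promoters that lay within 50 kb of another. Within 200 kb the shares were 9.25% and 19.0%, and the median distances to the nearest other ceiling region were 1.21e+06 and 1.09e+06 bp. The share over all common promoters was not counted.

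The 400 regions had 397 distinct nearest starts in 392 genes, of which 37 were also the nearest gene of another common region. Among these, Accn1, Sgcd, Speg and Zmiz1 each had a weak promoter and, at another start, a ceiling promoter. In Accn1, a proton-gated sodium channel gene, the start at position 81781959 of chromosome 11 (mm9) scored 156.15 for Jarid2 and 152.95 for Jarid2-K116me2, and the one at 80966823 scored 3100 for both. In Sgcd, encoding a sarcoglycan of muscle, the scores were 211.77 and 106.49 at position 47193024 of chromosome 11 and 3100 for both at 47802471.

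The genes at weak promoters differed in kind from those at ceiling promoters. None of the 359 protein-coding genes at weak promoters was in the list of developmental transcription factors (homeobox, Sox, Fox, Gata, Pax, T-box, Lhx and similar families), whereas 80 of 400 (20%) at ceiling promoters were. Over all common promoters the list held 121 of 2352 genes (5.14%) and over the annotation 336 of 22380 (1.5%). Taking every gene with a start within 1 kb rather than the nearest one left 0 of 400 weak and 88 of 448 ceiling promoters. Signalling ligands, receptors and antagonists made up 5 weak genes (1.39%) and 30 ceiling genes (7.5%), with 3.95% over all common promoters and 0.867% over the annotation. Among them were Igfbp3, which binds insulin-like growth factors, the TGF-beta receptor Tgfbr1, the GDNF family receptor Gfra3 and the Nodal antagonist Lefty1. The genes were counted without a test, since both sets were cut from the same scores.

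Other families were found in both sets, some with a larger share at weak promoters. Ion channels and neurotransmitter receptors were 15 weak genes (4.18%) and 25 ceiling genes (6.25%), against 5.74% of the genes at common promoters and 1.41% of the annotation. Among them were Hcn2 (Jarid2 score 241.24, Jarid2-K116me2 score 230.34), the neuropeptide Y receptor gene Npy5r (228.43 and 197.01), the kainate receptor subunit gene Grik2 (189.93 and 201.09) and the sodium-activated potassium channel gene Kcnt1 (189.77 and 222.66). Solute carriers and transporters were 12 weak genes (3.34%), such as the glutamate transporter gene Slc1a1 (236.96 and 225.02), and 5 ceiling genes (1.25%), against 3.02% of the genes at common promoters and 2.05% of the annotation. Small GTPases and their regulators were also 12 weak genes (3.34%), such as Rab8b (240.69 and 225.80) and Gem (162.85 and 157.23), and 3 ceiling genes (0.75%), against 2.30% and 1.05%. Axon guidance and cell adhesion genes were 10 (2.79%), among them the integrin genes Itga8 (234.21 and 233.69) and Itgb4 (215.08 and 229.53), and 23 ceiling genes (5.75%), against 3.53% and 1.12%.

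**Figure D2:**
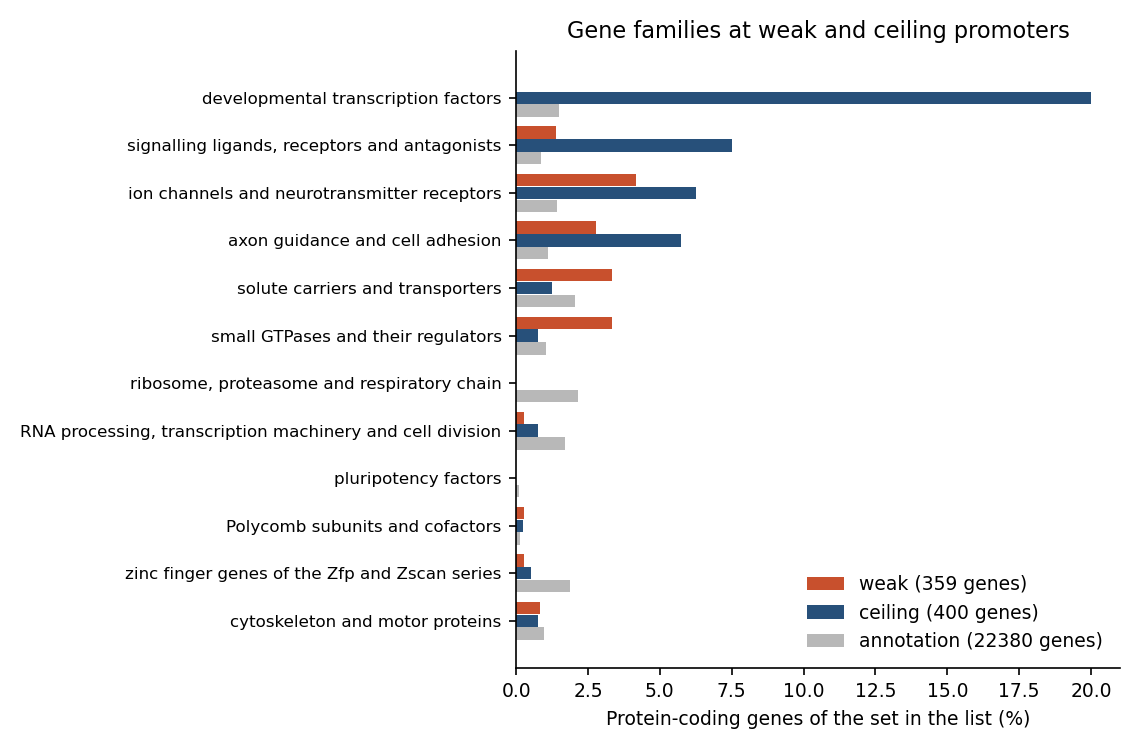
Share of protein-coding genes (x axis, percent) in each of 12 gene lists (y axis), for the 359 genes at weak promoters, the 400 at ceiling promoters and the 22380 of the annotation. Developmental transcription factors take 20% of the ceiling genes and none of the weak ones, and solute carriers and small GTPases take a larger share of the weak genes than of the ceiling genes.

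The lists of housekeeping genes were nearly empty, also over all common promoters. Genes of the ribosome, proteasome and respiratory chain were absent from both sets of nearest genes. They were 0.298% of the genes at common promoters and 2.15% of the annotation. RNA processing, transcription machinery and cell division had 1 weak gene, Cdk8 (0.279%, against 0.340% at common promoters and 1.70% of the annotation). Of the other lists, pluripotency factors, 0.0425% of the genes at common promoters and 0.112% of the annotation, were also absent from both sets. The zinc finger list had Zfp644 (0.279%, against 0.638% and 1.89%). The Polycomb list had Pcgf5 (0.279%, against 0.298% and 0.147%). Cytoskeleton and motor proteins had Tuba8, Tuba4a and Coro2b (0.836%, against 0.935% and 0.956%), so these last 2 lists were not depleted. Any list held 60 weak genes (16.7%), 175 ceiling genes (43.8%), 26.2% of the genes at common promoters and 14.9% of the annotation. Transcription factors that the lists did not hold were found among the members after their names had been seen. Among them were Mef2c, which acts in muscle and neurons (scores 249.49 and 233.87), the Wnt effector Tcf7l2 (91.90 and 98.45) and the nuclear receptor genes Esrrg (202.27 and 164.49), Ppara (124.97 and 123.94) and Vdr (104.52 and 143.30).

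Weak promoters were CpG rich, but less uniformly than ceiling promoters. In 1 kb around the start, the observed over expected CpG ratio, which is 1 where CpGs are as frequent as the C and G content predicts, had a median of 0.686 (quartiles 0.567 and 0.833) at weak promoters and 0.768 (quartiles 0.678 and 0.852) at ceiling promoters. It was 0.460 over the 69976 protein-coding starts of the annotation. A window with a ratio above 0.6 and a GC content above 50% was counted as CpG-island-like. Such windows were found at 261 of 400 weak promoters (65.25%), at 84.4% of the ceiling promoters, at 77.0% of all common promoters and at 39.2% of the protein-coding starts. Promoters between the 2 sets were graded by the smaller of their scores, and the share was 71.0% under 500, 78.9% from 500 to under 1000 and 83.7% from 1000 on.

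**Figure D3:**
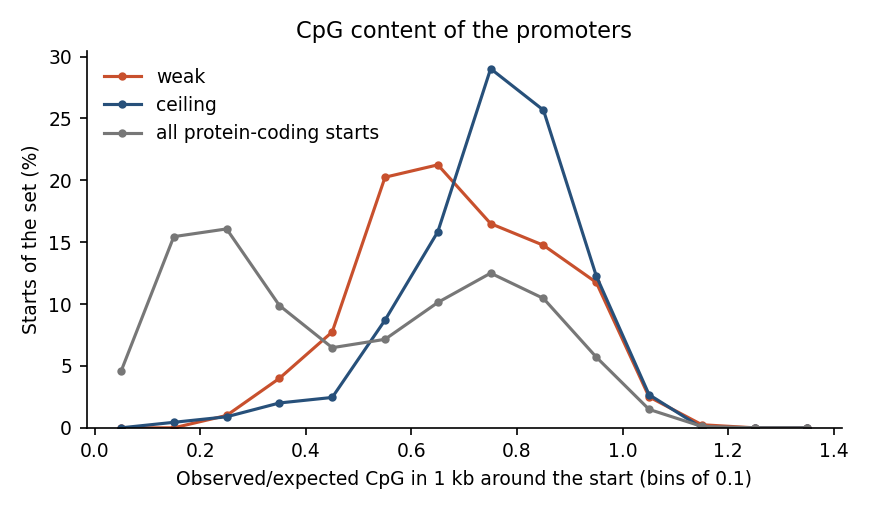
Distribution of the observed over expected CpG ratio in 1 kb around the start (x axis, bins of 0.1) as percent of the starts of each set (y axis). The weak promoters peak in the bin from 0.6 to 0.7 (21.25%) and the ceiling promoters in the bin from 0.7 to 0.8 (29.0%), while the protein-coding starts form 1 group at low and 1 at high ratios.

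Short motifs were searched on both strands in the 300 bases from 250 before to 50 after the start. The GC box GGGCGG is bound by SP and KLF factors and itself holds a CpG. It occurred in 69.25% of the weak, 62.5% of the ceiling, 67.7% of all common and 40.3% of the protein-coding starts. The TATA box TATAAA occurred in 4%, 8.26%, 5.73% and 11.2%, and the repeat GAGAGA in 20.25%, 28.8%, 22.7% and 23.8%. Motifs typical of housekeeping promoters were rare at weak, ceiling and all common promoters. The ETS motif CCGGAAGT was present in 3 of 400 weak promoters (0.75%), 0.223% of the ceiling, 0.562% of all common and 4.57% of the protein-coding starts. The YY1 motif AAGATGG was present in 15 (3.75%), 3.35%, 2.51% and 7.0%. A match of letters does not show a bound site.

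Part of the members lay in repeated sequence. Of the 400, 22 had a copy of the 1 kb around their midpoint elsewhere in mm9, at an identity of 90% or more over at least 90% of its length, against 1 of the 448 ceiling promoters. These 22 included 13 on chromosome 14, among them 3 regions of Gm3002 and the start of 2610042L04Rik, whose window had 41 copies, and 6 on chromosome 4. The authors' mapping reported 1 location for reads that fit several, so the scores at these starts can hold reads of the copies, and their part in the scores was not tested.

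H3K27me3, which the choice of members did not use, was far less frequent at weak than at ceiling promoters. In KO ESC, an H3K27me3 peak covered the start of 4.5% of the weak promoters in replicate 1 and 38.75% in replicate 2, against 20.9% and 68.8% of all common promoters. In WT-rescued ESC the shares were 0% and 22.5%, against 2.43% and 51.5%. In K116A-rescued ESC they were 3.5% and 24.25%, against 23.4% and 57.6%. In EBs, the weak share was 18.75% and 27% in KO (44.4% and 53.0% of all common promoters), 11% in both replicates of WT-rescued (40.4% and 37.1%) and 15% and 25.25% in K116A-rescued (45.5% and 56.3%). Replicates 1 gave fewer peaks than replicates 2 in all 6 pairs, from 1478 against 8579 in WT-rescued ESC to 10164 against 14125 in KO EBs, and the authors considered replicates 2 of higher quality. The spread between replicates in ESC was thus larger than the differences between lines.

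The difference from the ceiling promoters held in every library. Their share ran from 11.4% in replicate 1 of WT-rescued ESC to 92.4% in replicate 2 of KO ESC. Over the 12 libraries, the mean share was 16.8% ± 11.4 (SD) at weak and 68.7% ± 22.2 at ceiling promoters. The weak share was lower in 12 of 12 libraries, with a mean difference of -51.9 percentage points (exact two-sided sign-flip permutation test over libraries, p = 0.000488, the smallest value it can give, and 0.00146 after Benjamini-Hochberg adjustment over the 3 tests made). Weak promoters were still above the annotation as a whole in 11 of 12 libraries. For example, H3K27me3 covered 7.90% of the protein-coding starts in replicate 2 of KO ESC and 4.27% in replicate 2 of WT-rescued EBs. Where weak promoters had peaks, these also had lower scores, on a scale that the sources used here do not give. The median H3K27me3 score was lower at weak than at ceiling promoters in 11 of 11 libraries that had both, for example 62.8 against 103 in replicate 2 of KO ESC and 77.0 against 150 in replicate 2 of K116A-rescued EBs. The gap was small in replicate 1 of K116A-rescued ESC, at 54.4 against 58.0, where 14 weak promoters had a peak.

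**Figure D4:**
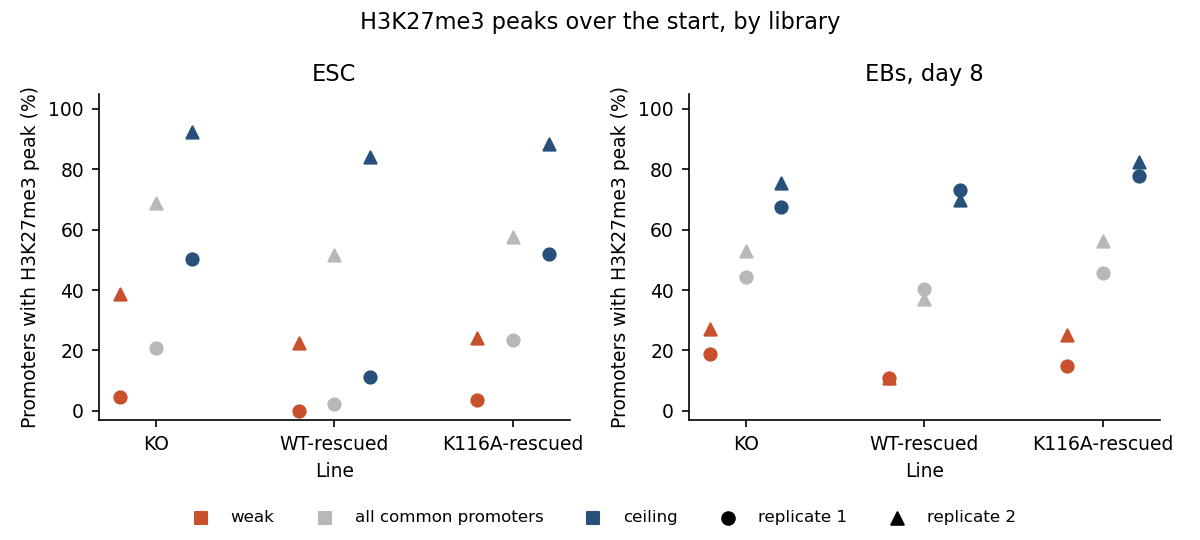
Share of promoters with an H3K27me3 peak over the start (y axis, percent) in each of the 12 libraries, by line (x axis), in ESC on the left and EBs on the right, for weak, all common and ceiling promoters. The weak share lies below the ceiling share in every library, and the points of both WT-rescued EB libraries coincide at 11% for weak promoters.

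Across the score classes the share rose in steps. In replicate 2 of WT-rescued ESC it was 22.5% at weak promoters, 31.8% at the next class (smaller score under 500), 48.5% from 500, 68.4% from 1000 and 84.2% at the ceiling. Within the members the order was less regular. From the 100 promoters with the lowest smaller scores (62.2 to 104.5) to the 100 with the highest (164 to 242), the shares were 17%, 20%, 22% and 31% in the same library. They were 12%, 10%, 10% and 12% in replicate 2 of WT-rescued EBs, and the share with a peak in any library was 46%, 52%, 45% and 60%. These are descriptions, since promoters of 1 library are not replicates.

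Counted per promoter, the members fell into a large group without a called peak and a tail with peaks in several libraries. No library of the 12 had an H3K27me3 peak over the start of 197 members (49.25%), against 20 ceiling promoters (4.46%). Over all common promoters, 575 (21.5%) had none. Reads were not analysed, so a start without a called peak can still carry the mark. At 57 members (14.25%) a peak was present in 6 or more libraries, against 355 ceiling promoters (79.2%) and 1205 of all common promoters (45.1%). The median was 1 library for weak, 9 for ceiling and 4 for all common promoters. No member had a peak in all 12, since replicate 1 of WT-rescued ESC had one at none of the 400. Members with and without any called H3K27me3 peak had similar base composition, with a median CpG ratio of 0.669 (quartiles 0.561 and 0.778) for the 203 with a peak and 0.711 (quartiles 0.576 and 0.866) for the 197 without. Their median Jarid2 scores were 174 and 159, and their median Jarid2-K116me2 scores 149 and 147.

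**Figure D5:**
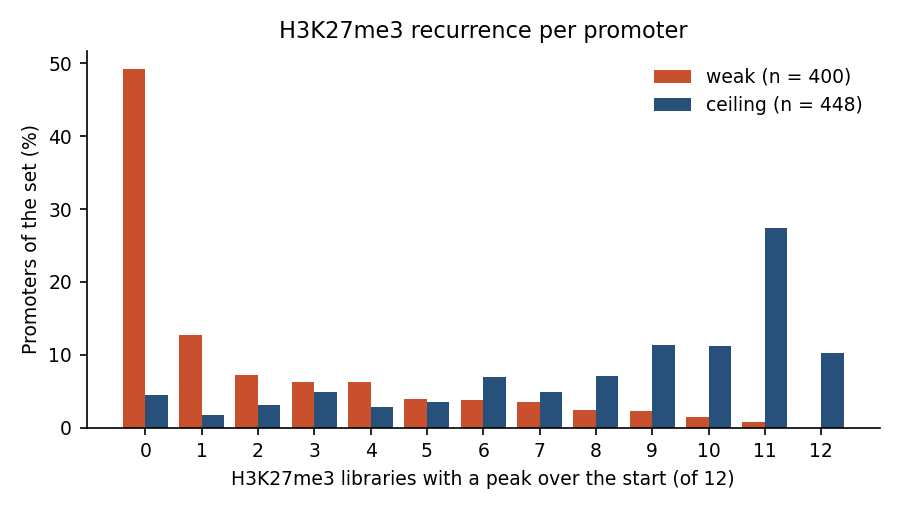
Number of the 12 H3K27me3 libraries with a peak over the start (x axis) and percent of the promoters of each set (y axis). Of the weak promoters 49.25% have none, while 27.5% of the ceiling promoters have 11.

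Hcn2, Kcns1 and Plec, whose sequences are printed above, had H3K27me3 in 11 libraries, all except replicate 1 of WT-rescued ESC. Neto2, encoding an auxiliary subunit of kainate receptors, Tub, Ppara, Mlf1 and Lpin2, encoding a phosphatidate phosphatase, had it in 10. Their scores ran over much of the range of the members. Kcns1 had the highest Jarid2 score of all members (249.83), with Plec at 246.89 and Hcn2 at 241.24, and Ppara scored 124.97 for Jarid2 and 123.94 for Jarid2-K116me2. Over the 57 members with the mark in 6 or more libraries, the median scores were 195 for Jarid2 and 163 for Jarid2-K116me2, above the medians of 167 and 148 over all members. At the other end, Tnfrsf19 (240.75 and 235.86), Nmbr (233.57 and 238.80), Chdh (236.50 and 226.97), Rab8b, Gm3468, the Arf GTPase activator gene Asap1 (242.06 and 218.92), Fign and the receptor gene Gpr64 were among the highest-scoring members and had it in none. The members without a called peak were named for their highest smaller scores, so their high scores were set by the choice. Scores of the same size were thus found at starts with recurrent H3K27me3 peaks and at some starts without a called one.

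The mark was also counted by family, without a test between families. H3K27me3 was found in at least 1 library at 13 of 15 ion channel and neurotransmitter receptor promoters, with a median of 5 libraries, and at 10 of 12 solute carrier promoters, with a median of 1.5. It was found at 5 of 12 small GTPase promoters, 4 of 10 axon guidance and adhesion promoters and 2 of 5 signalling promoters, each with a median of 0, and at 203 of all 400 members. Grik2, the nicotinic receptor gene Chrna5 and the cation channel gene Trpc1 each had 8 libraries, whereas Clcn4-2 and the metabotropic glutamate receptor gene Grm2 had none. Of the signalling genes, Igfbp3 had 6 and Tgfbr1 had 4, and Gfra3 and Lefty1 had none.

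A difference between ESC and EBs could not be shown for the weak share. The mean was 15.6% ± 15.3 (SD, n = 6) in ESC and 18.0% ± 6.94 (n = 6) in EBs, a difference of 2.42 percentage points that was within the spread between libraries (exact two-sided permutation of the stage within lines, p = 0.685, smallest possible p 0.00926). Replicates 1 alone gave a rise of 12.25 points and replicates 2 alone gave -7.42, so the direction rests on replicates 1, whose ESC lists are the shortest of the series. Leaving out any 1 of these reversed it, to -3.29 points without replicate 1 of KO ESC, -1.33 without that of WT-rescued ESC and -1.04 without that of K116A-rescued ESC. The difference between stages at weak promoters minus that at ceiling promoters was -8.82 points, which was also within the spread (the same permutation test, p = 0.426). It was -0.440 without replicate 1 of WT-rescued ESC and -17.2 without replicate 2 of that group.

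At individual members the calls of ESC and EB libraries differed, which was counted and not tested. In replicates 2, H3K27me3 was present in ESC and not in EBs at 76 members (19%) in KO, 60 (15%) in WT-rescued and 42 (10.5%) in K116A-rescued cells, against 21.7%, 18.1% and 12.4% of all common promoters. It was present in EBs and not in ESC at 29 (7.25%), 14 (3.5%) and 46 (11.5%), against 5.92%, 3.67% and 11.0%. These shares lie near those of common promoters in general. All 6 EB libraries had the mark at 21 members (5.25%), against 29.2% of the common promoters. In 2 of them, Faah, encoding the hydrolase of the endocannabinoid anandamide, and Zfyve28, no ESC library had it (0.5%, against 0.524%). The splicing factor gene Esrp2, the regulatory kinase subunit gene Prkar2a, Fa2h and the integrin gene Itgb4 followed, with 5 or 6 EB libraries and at most 1 ESC library. In the opposite direction, 12 members (3%, against 4.27%) had it in all 3 ESC libraries of replicates 2 and in no EB library. Among them were the calcium channel gene Cacna1b, present in 5 ESC libraries, Zmynd15 in 4, and Rxra and Arhgef40 in 3. Mef2c had 5 ESC libraries and 2 EB libraries.

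The lines were compared by their values per library, without a test, since an exact permutation of 2 libraries against 2 cannot reach a p below 0.05. In EBs, the weak share was 18.75% and 27% in KO and 15% and 25.25% in K116A-rescued against 11% and 11% in WT-rescued cells, so that neither group overlapped with the WT-rescued one. The same held over all common promoters, so it was not particular to the members. There the shares were 44.4% and 53.0% in KO, 45.5% and 56.3% in K116A-rescued and 40.4% and 37.1% in WT-rescued EBs. The KO and K116A-rescued lists also covered more of the genome. They spanned 33.6 and 55.0 Mb in KO and 23.2 and 37.2 Mb in K116A-rescued, against 19.6 and 22.5 Mb in WT-rescued EBs. By the paper's counts, each KO and K116A-rescued EB library also kept more reads after removal of duplicates than either WT-rescued one. The part of coverage and of read number in the shares was not tested. At 31 members (7.75%, against 6.10% of the common promoters), both KO EB libraries and no WT-rescued EB library had the mark. The reverse held for 2 members (0.5%, against 0.824%). For K116A-rescued EBs the numbers were 20 (5%, against 7.04%) and 4 (1%, against 0.599%). All 4 KO and K116A-rescued libraries, and no WT-rescued one, had it at 7 members (1.75%, against 2.73%), which were Tmem229b, B430319F04Rik, Sept3, Nup62cl, 1110032A04Rik, Zfp644 and Stau2. The 31 members also included Igfbp3, Tgfbr1, Slc1a1, Kcnt1 and the weak start of Accn1, and the 20 included both regions of Jak2, which share 1 start, Pcgf5, Vdr and Itga8. The genes of the reverse group of K116A-rescued EBs were Tcerg1l, Pyy, Sh2d5 and Ptchd2. Both comparisons use the same WT-rescued libraries.

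In ESC, the comparison was limited to replicates 2. There, 69 members (17.25%, against 18.1% of the common promoters) had H3K27me3 in KO and not in WT-rescued cells, and 4 (1%, against 0.861%) had the reverse. For K116A-rescued ESC, 27 members (6.75%, against 10.4%) and 20 members (5%, against 4.34%) were found. These shares were near those of the common promoters for KO, and the KO list was also the longest of the 3, with 9836 peaks against 8579 in WT-rescued and 9143 in K116A-rescued ESC.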

How the data were processed

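The authors mapped single reads of 100 bp to mm9 with Bowtie2 (version 2.1.0 in the submitters' processing notes). Reads that fit several places were given to one of them, and copies arising in PCR were discarded. They called Jarid2 and Jarid2-K116me2 peaks with MACS 1.4.2 and H3K27me3 peaks with MACS2 2.0.10 in its broad mode, library by library against input, and HOMER 3.17 served to compare peaks. The deposited peak lists hold positions and a score. For Jarid2 it is the MACS score, and the scale of the H3K27me3 score is not given in the sources used here. The MACS score rises with depth, and how depth enters the H3K27me3 score is not known. Read numbers per peak and library were not analysed here, so no interval could be given for a value. The input libraries served as the authors' controls only.

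Peaks were merged at an overlap of 1 bp or more, and each region was assigned to the start nearest to its midpoint in the GENCODE annotation of NCBIM37, the same build. The members and gene lists were chosen with earlier results of these data known. H3K27me3 was counted where a peak covered the start. Shares were compared over 12 libraries by exact two-sided permutation tests, with sign flips for weak against ceiling promoters and the stage permuted within lines. Nothing in the labels ties the replicates to separate cultures, although the methods describe independent samples. The merging, distance and permutation functions were tested on simulated data. Sequences came from the NCBIM37 genome, and copies were searched with minimap2 2.31. The analysis ran in Python 3.11.15 with pandas 2.3.3, numpy 2.4.6, pysam 0.24.0, matplotlib 3.10.9 and scipy 1.17.1.

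Genes were named by a rule. It took the members with the lowest scores and those next to the limit of 250, up to 8 protein-coding members with the most H3K27me3 libraries and up to 8 with none, up to 6 at each end of the difference between EB and ESC libraries, and up to 4 per gene list by their smaller score. Ties in H3K27me3 libraries were ordered by the mean score, because the lists have no fold enrichment. Further genes were named after their values had been seen, where they completed a small group. Some genes that the rule or a group would name are not reported here.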

Additional observations from a re-analysis of the deposited data

How the results depend on the processing

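The lower H3K27me3 share at weak promoters kept its direction and its side of the threshold under all 10 other settings, with differences from -57.3 to -44.2 percentage points, and with each library left out, from -55.6 to -50.8. The difference between EBs and ESC at weak promoters did not pass the threshold in the settings that used all libraries or all but 1. Replicates 1 only gave 12.25 points, with a rise in all 3 lines, at the smallest p that its 8 arrangements allow (exact permutation test, p = 0.25), so neither that setting nor replicates 2 only could pass. The difference reversed to -0.375 points when the whole region rather than the start had to overlap a peak and to -7.42 with replicates 2 only, and ran from -3.29 to 8.12 with each library left out, the negative values coming without replicate 1 of KO, WT-rescued or K116A-rescued ESC. The difference of this change between weak and ceiling promoters reversed to 5.01 points with replicates 2 only and ran from -17.2 to -0.440 with each library left out. With the score limit at 200 there were 239 members in place of 400, and the other definitions gave 281 to 521. A setting that asked for a minimum -log10 q was not run, because the lists have no such column. A minimum score of 50, chosen after seeing the data, gave -53.1, 2.875 and -8.96 points for the 3 tests. Leaving out promoters with a copy elsewhere, also chosen after seeing the data, gave -51.7, 3.75 and -7.51 points. Neither setting changed a direction or a side of the threshold.

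Same-numbered ESC and EB libraries shared little promoter by promoter, although replicates 1 had fewer peaks in all 6 groups. Deviations of same-numbered ESC and EB libraries from their group means, across 2670 promoters, correlated at 0.083 in KO, -0.00063 in WT-rescued and 0.068 in K116A-rescued cells. Such a correlation ignores a shift common to all promoters, so it cannot show whether the numbers pair the samples in that way. A replicate block left both differences between stages within the spread, at 2.42 points (exact sign-flip permutation test over pairs, p = 0.562) and at -8.82 points (p = 0.469).

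The number of H3K27me3 peaks, from 1478 to 14125 per library, limits every share. It does so most of all in replicate 1 of WT-rescued ESC, where none of the 400 members had a peak. By the paper's counts, this library kept the most reads of all ESC libraries after removal of duplicates.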
